A study of Mus musculus with 18 samples.

Results

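Blastocysts from the PM2.5 exposure group were compared with blastocysts from the filtered air group in 6 of the 18 libraries of the series, 3 in each group. PM2.5 is airborne particulate matter of the fine size class, and the comparison addresses whether exposure to it was followed by a different transcriptome in the embryo before implantation. A gene was included when its mean value over the 6 blastocyst libraries was at least 3 on the deposited log2 scale, and 4834 of the 52550 genes in the table met this. All animals were of the C57BL/6 strain, and the series also holds oocytes and cumulus cells from both exposure groups. The labels give no particle dose, length of exposure, age of the animals or stage of the blastocysts. They do not say whether the embryos or the animal that carried them breathed the air under test, or how many embryos or animals stand behind a library. For that reason a p-value here reflects only how far libraries of 1 group differ, and some of that may be technical.

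The blastocyst is the stage at which the mammalian embryo implants. Its outer layer, the trophectoderm, is a pumping epithelium that fills the central cavity with fluid and later forms the placenta, while the inner cell mass separates into epiblast, the source of the fetus, and primitive endoderm, the source of the yolk sac lining. Toxic particles are known in other tissues to act through oxidative stress, through the aryl hydrocarbon receptor that binds polycyclic aromatic compounds, and through metals, so genes of these responses were examined beside those of lineage, metabolism and growth.

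The libraries held blastocyst RNA by their markers. The keratin Krt18 of the trophectoderm stood between 9.79 and 10.69 over the 6 libraries, the trophectoderm regulator Cdx2 between 5.85 and 6.68, and the pluripotency genes Zfp42 and Nanog between 6.90 and 7.11 and between 5.38 and 6.14. Between 16512 and 17465 genes were above 0 in a library, and depth is unknown because the files give no read counts. Values of included genes correlated across genes at 0.953 to 0.966 between libraries of one group and at 0.952 to 0.964 between the groups, with a mean of 0.957 in each case. Replicate 1 of both groups stood apart from the rest: principal component 1 (27.5% of the variance) placed them at -15.5 and -15.8 and the other 4 libraries between 3.0 and 10.5. Mitochondrially encoded genes took 16.1% and 14.7% of the summed linear values in PM2.5 replicate 1 and filtered-air replicate 1, and 21.1% to 23.3% in the other 4.

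No gene passed an adjusted p of 0.05 (limma, 0 of 4834, or 0%), and the smallest adjusted p was 0.726. Without adjustment, 191 genes (3.95%) had a p under 0.05, of which 86 (1.78%) stood higher with PM2.5 and 105 (2.17%) lower, where chance alone gives 242. The 3 exposed libraries lay wholly above or wholly below the 3 control libraries in 412 genes (8.52%), above in 175 (3.62%) and below in 237 (4.90%). With 3 libraries in each group, a random order alone would separate a larger share of genes than this, so separate groups are not in themselves a sign of a difference. The mean was higher with PM2.5 in 2301 genes (47.6%), and the median difference was -0.0109. Differences, here and throughout, are log2 values of PM2.5 minus filtered air, on the log2(x + 1) scale. That scale makes the change of a low gene look smaller than it is.

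For most genes the difference was measured to within a 2-fold change. The 95% interval of the difference lay inside 1 log2 unit in either direction, a 2-fold change, for 4426 genes (91.6%), and inside a 1.5-fold change for 2338 (48.4%). From the difference to either bound, the median distance was 0.45. Intervals were narrower at higher levels. The interval lay inside 2-fold for 84.7% of the 1737 genes with a mean of 3 to 4, for 93.1% of the 1326 from 4 to 5, for 97.1% of the 1261 from 5 to 7 and for 97.3% of the 510 at 7 and above. The 5th and 95th percentiles of the difference were -0.39 and 0.37, while 22 genes differed by more than 1 upward and 15 by more than 1 downward. At the floor of the selection, Cenpt (mean 3.0001) and Osbp (3.0008) were just inside and Myl9 (2.9990), Atp13a1 (2.9988) and Limd2 (2.9981) just outside.

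**Figure D1:**
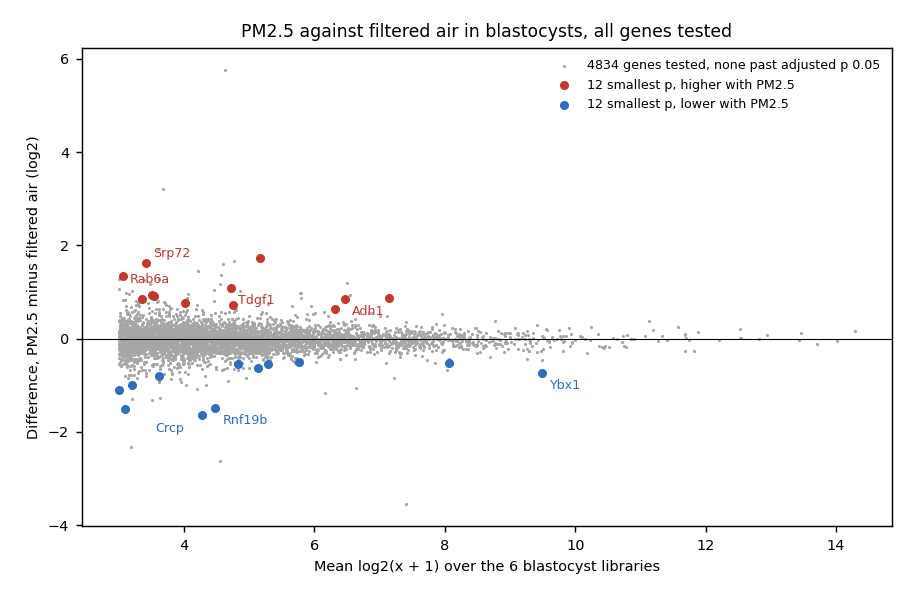
Difference between PM2.5 and filtered air (log2, vertical axis) against the mean log2(x + 1) value over the 6 blastocyst libraries (horizontal axis), 1 point per gene for 4834 genes. The 12 genes with the smallest p in each direction are coloured; the cloud is centred near 0 (median -0.0109) and none of the points passed the adjusted threshold of 0.05.

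Among the genes with the smallest p that stood higher with PM2.5, Srp72 and Rab6a encode parts of the secretory route. Their lists as a whole did not stand higher: 11 of 24 tested signal recognition particle and translocon genes and 9 of 23 Rab GTPases did. Srp72, a protein subunit of the signal recognition particle that brings nascent secretory proteins to the endoplasmic reticulum, stood at 3.82, 4.40 and 4.45 in the exposed libraries (replicates 1 to 3 in order, as in all such lists) and at 1.86, 3.04 and 2.90 in the controls. Every exposed library lay above every control library, with filtered-air replicate 1 the lowest. The difference was 1.63 (SE 0.33, unadjusted p = 0.000698, limma adjusted p = 0.726). Srp72 lies on chromosome 5 from 76974701 to 76999935 (mm10, as are all coordinates here). In a fit that took its spread from all 18 libraries of the series, the adjusted p of Srp72 was 0.0162, so its call depends on which libraries set the spread.

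Rab6a, a GTPase of Golgi transport (chromosome 7, 100607575 to 100641268), stood at 3.88, 3.80 and 3.54 with PM2.5 and at 2.63, 2.75 and 1.77 in filtered air, a difference of 1.35 (SE 0.29, limma adjusted p = 0.756). The groups did not overlap, and filtered-air replicate 3 was the lowest. Cdipt, which makes phosphatidylinositol, stood at 5.98, 5.61 and 6.50 against 3.66, 5.60 and 3.69, a difference of 1.72 (SE 0.47). Replicate 2 of each group stood level, and the other controls were far lower. Without filtered-air replicate 2 its difference was 2.36 with a limma adjusted p of 0.0339. Leaving out the control nearest to the exposed libraries favours a smaller p, and Cdipt did not pass with any other library left out. Glipr2, a Golgi-associated protein, stood at 5.11 ± 0.20 with PM2.5 and 4.41 ± 0.32 in filtered air (mean ± SD, n = 3).

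Adh1, a cytosolic alcohol dehydrogenase that can oxidize retinol (chromosome 3, 138277585 to 138290698), belongs to the list of retinoid metabolism, of which 4 genes were tested, 3 higher and 1 lower, with a median of 0.33. It stood at 7.08, 6.57 and 7.02 with PM2.5 and at 6.07, 6.42 and 5.62 in filtered air, a difference of 0.85 (SE 0.22, limma adjusted p = 0.998). Rdh14, a retinol dehydrogenase, stood at 4.72, 4.72 and 4.58 against 4.13, 4.18 and 4.18, a difference of 0.51 (SE 0.16). For both, every exposed library was above every control library. The other tested members, Adh5 and Rdh11, differed by -0.02 and 0.15, and 15 of the 19 names on that list were below the floor.

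Of the remaining genes in this direction, Tdp2, which removes trapped topoisomerase from DNA ends, stood at 3.78 ± 0.18 with PM2.5 and 2.94 ± 0.32 in filtered air (SD, n = 3). The Aurora kinase cofactor Bora stood at 3.99 ± 0.24 and 3.05 ± 0.47, the ubiquitin ligase Rnf130 at 6.63 ± 0.34 and 6.00 ± 0.07, the immunophilin Fkbp6 at 4.39 ± 0.17 and 3.63 ± 0.32, and the PDZ protein Sdcbp2 at 4.01 ± 0.21 and 3.08 ± 0.33. The groups did not overlap in any of these 5, and their limma adjusted p was 0.998. Their choice by small p favours such separation, which held for 8.52% of all genes tested.

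Among the genes that stood lower with PM2.5, Crcp had the smallest p of all 4834. Crcp, known as a component of a neuropeptide receptor and as a subunit of RNA polymerase III (chromosome 5, 130029306 to 130060787), stood at 3.24, 4.18 and 2.92 with PM2.5 and at 4.74, 5.24 and 5.33 in filtered air. The groups did not overlap, and PM2.5 replicate 2 was nearest to the controls. The difference was -1.65 (SE 0.31, unadjusted p = 0.000446, limma adjusted p = 0.726), and without that replicate the difference was -2.02 with an adjusted p of 0.0227. Leaving out the exposed library nearest to the controls favours a smaller p, and Crcp did not pass with any other library left out.

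Ybx1, an abundant protein that binds and packages messenger RNA (chromosome 4, 119277327 to 119296265), stood at 9.32, 8.93 and 9.13 with PM2.5 and at 10.02, 9.59 and 9.94 in filtered air. Each exposed library was below each control library, and the difference was -0.73 (SE 0.17, limma adjusted p = 0.831). Its relative Ybx3 stood at 7.53, 7.44 and 7.40 against 7.98, 7.78 and 7.73, a difference of -0.37 with no overlap. Over the list of Y-box and hnRNP proteins as a whole, 9 of 16 tested members were higher and 7 lower, with a median of 0.02. Processed copies of Ybx1 exist in the mouse genome, and how their reads were divided is not given in the sources used here.

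The ubiquitin ligase Rnf19b stood at 4.01, 3.69 and 3.49 with PM2.5 and at 5.56, 5.63 and 4.49 in filtered air, a difference of -1.49 (SE 0.30, limma adjusted p = 0.726). All 3 exposed libraries were below the controls, of which replicate 3 was nearest. Vhl, the subunit of the ubiquitin ligase that marks hypoxia-inducible factors for breakdown (chromosome 6, 113623994 to 113631634), stood at 4.44, 4.71 and 4.49 against 5.21, 5.01 and 5.07, a difference of -0.55 (SE 0.16). Washc5, a subunit of an endosomal actin regulator, stood at 3.21 ± 0.12 with PM2.5 and 4.01 ± 0.17 in filtered air, and the SCAN-domain gene Scand1 at 2.45 ± 0.26 and 3.56 ± 0.32. Pgp, a phosphoglycolate phosphatase, stood at 5.51 ± 0.18 and 6.02 ± 0.09, Ccdc124 at 5.02 ± 0.07 and 5.56 ± 0.05, and the transporter-family gene Slc35e4 at 2.71 ± 0.17 and 3.71 ± 0.30 (SD, n = 3). Kat14, a subunit of a histone acetyltransferase complex, had a wider spread, at 1.78, 1.85 and 3.38 against 4.24, 3.77 and 3.58. None of these passed, and none overlapped between groups. Here too the choice by small p favours separate groups (8.52% over all genes tested).

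**Figure D2:**
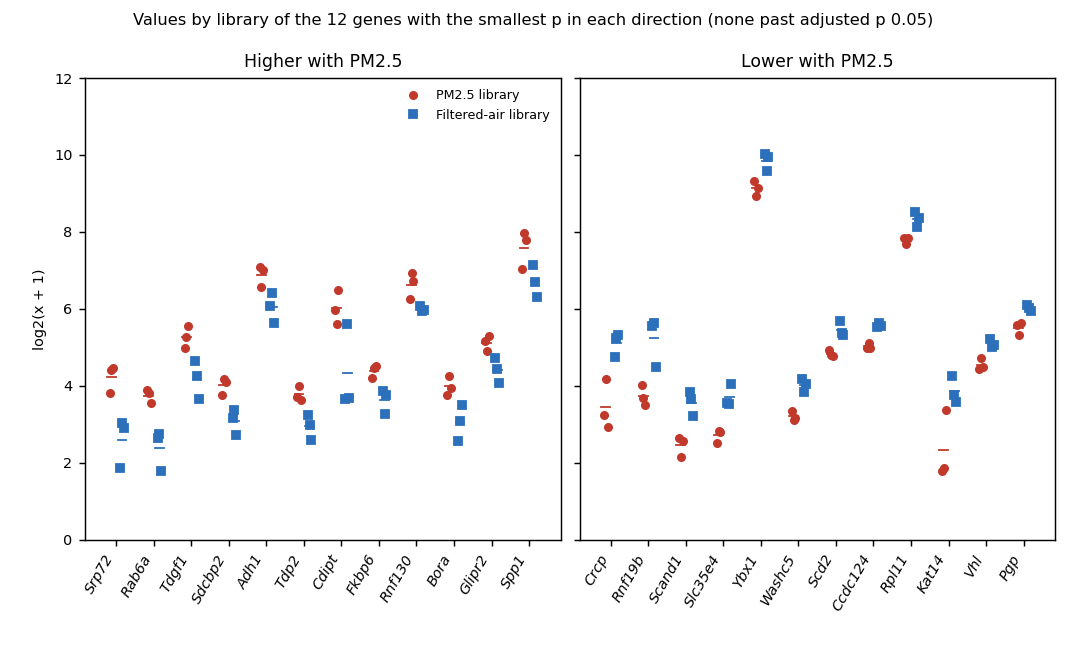
Values by library (log2(x + 1), vertical axis) of the 12 genes with the smallest p in each direction, with PM2.5 libraries as circles, filtered-air libraries as squares, replicates 1 to 3 from left to right and a line at each group mean. The groups are separate for 11 of the 12 higher genes (Spp1 overlaps) and for all 12 lower genes, and none passed an adjusted p of 0.05. The choice by small p favours separate groups, and over all genes tested they were separate in 8.52%.

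Transcripts of the 3 lineages were then examined for a shift in their balance, where fewer cells of a lineage and less RNA per cell cannot be told apart. In the trophectoderm list, 14 of 20 genes were tested, 8 higher and 6 lower, with a median of 0.01 against -0.01 over all genes tested. Cdx2 stood at 6.68, 5.85 and 6.17 with PM2.5 and at 6.39, 6.31 and 6.19 in filtered air (difference -0.06, SE 0.20). The other regulators Gata3, Eomes, Tead4, Id2, Tfap2a and Tfap2c differed by 0.00, 0.02, 0.01, 0.08, 0.11 and -0.41, and the receptors Lrp2 and Fgfr2 by -0.01 and 0.26, all with overlapping groups. The mean over the 20 genes of the list was 4.24, 4.05 and 4.18 with PM2.5 and 4.27, 4.27 and 4.28 in filtered air, with no overlap, while the median of the tested genes ran from -0.06 to 0.11 over the alternatives.

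The 2 trophectoderm genes at an unadjusted p under 0.05, of 14 tested, lay on opposite sides. Over all genes tested, 3.95% had such a p. Elf5, a trophoblast stem cell factor, stood at 3.40, 3.24 and 3.60 with PM2.5 and at 3.13, 2.80 and 2.61 in filtered air, a difference of 0.56. Klf5, which acts in both trophectoderm and inner cell mass, stood at 4.07, 3.31 and 4.05 against 4.36, 4.38 and 4.31, a difference of -0.54. In both the groups were separate, and the limma adjusted p was 0.998. The keratins Krt8 and Krt18 differed by -0.43 (interval -0.88 to 0.02) and -0.31 (-0.84 to 0.23), and the tetraspanin Tspan8 by 0.29 (-0.10 to 0.69). Of the 6 members below the floor, Hand1 and Krt19 stayed at or below 1.41 and 0.47 in every library and Dlx3 was listed at 0 in all 6. The other 3 had lower means with PM2.5. The keratin Krt7 stood at 0.52, 0.28 and 0.31 against 1.06, 0.79 and 0.92, and Ascl2, a regulator of trophoblast, was listed at 0 in the exposed libraries and stood at 0.72, 0.11 and 0.91 in the controls. Gata2 averaged 0.95 and 1.53 with overlapping groups.

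In the list of epiblast and pluripotency genes, 13 of 24 were tested, 10 higher and 3 lower, with a median of 0.13. The mean over the 24 genes was 4.13, 4.45 and 4.33 with PM2.5 and 4.12, 3.87 and 3.80 in filtered air, with replicate 1 of the groups almost level. Tdgf1, the co-receptor through which Nodal signals in the epiblast (chromosome 9, 110939608 to 110946158), stood at 4.97, 5.26 and 5.55 with PM2.5 and at 4.64, 4.24 and 3.66 in filtered air. All exposed libraries lay above the controls, with a difference of 1.08 (SE 0.26, unadjusted p = 0.00223, limma adjusted p = 0.989). Spp1, the secreted phosphoprotein osteopontin, stood at 7.03, 7.96 and 7.79 against 7.14, 6.69 and 6.30. Its groups overlapped, because exposed replicate 1 lay below control replicate 1.

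Pou5f1, the core pluripotency factor (chromosome 17, 35506032 to 35510777), lay the other way. It stood at 4.75, 4.81 and 4.81 with PM2.5 and at 5.22, 5.05 and 5.33 in filtered air, a difference of -0.41 (SE 0.15, unadjusted p = 0.0232, limma adjusted p = 0.998), with every exposed library below the controls. Nanog differed by 0.19 (interval -0.36 to 0.74), Zfp42 by -0.07 (-0.35 to 0.22), Klf4 by 0.31 (-0.29 to 0.90) and Klf2 by 0.42 (-0.21 to 1.06). Dppa5a and Dppa3 differed by 0.10 and 0.06, and Dppa4, Tfcp2l1, Sall4 and Fbxo15 by 0.13, 0.16, 0.00 and -0.04. The list gave a median of 0.07 without filtered-air replicate 3.

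Of the 11 pluripotency genes below the floor, 8 had a mean of at least 1. The embryonic stem cell cofactor Utf1 stood at 3.15, 3.70 and 3.47 with PM2.5 and at 2.78, 2.32 and 1.60 in filtered air, and Prdm14, a repressor of fibroblast growth factor signalling, at 2.06, 0.99 and 1.93 against 0.92, 0.39 and 0.62. Both, and Esrrb at 1.85 ± 0.10 against 1.32 ± 0.19 (SD, n = 3), were higher in each exposed library. In a fit that included genes with a mean of at least 1, the unadjusted p was 0.00475 for Utf1, 0.0139 for Prdm14 and 0.0423 for Esrrb, and the limma adjusted p was 0.997 for each. Sox2 stood at 2.31, 3.16 and 3.30 against 2.78, 2.10 and 1.78 and Fgf4, the epiblast ligand for the primitive endoderm, at 1.23, 1.79 and 2.31 against 1.54, 1.24 and 0.29, both with overlap. Etv5, Bmp4 and Gdf3 also overlapped, with means of 2.71, 1.37 and 1.91 with PM2.5 and 1.98, 0.78 and 1.96 in filtered air. With genes down to a mean of 1 included, the median of the list was 0.31.

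Primitive endoderm transcripts were mostly low, with 3 of 21 list genes tested, 1 higher and 2 lower (median -0.02). Gata6, which specifies this lineage, stood at 5.35 ± 0.16 with PM2.5 and 5.41 ± 0.25 in filtered air, the endocytic adaptor Dab2 at 5.93 ± 0.25 and 5.95 ± 0.56, and the laminin chain Lamb1 at 3.54 ± 0.09 and 3.29 ± 0.13 (SD, n = 3). Lamb1 was higher in each exposed library, with an interval from -0.18 to 0.68. The receptor Pdgfra stood between 0.57 and 1.30 over the 6 libraries, Gata4 between 0.04 and 1.68 and Sox17 between 0.02 and 1.99, with overlapping groups in all of them. Of the other members below the floor, Fgfr1, the receptor for the epiblast ligand, stood at 2.73, 2.40 and 2.38 with PM2.5 and at 2.14, 2.27 and 2.29 in filtered air, and Hnf4a at 0.75, 0.67 and 0.83 against 0.32, 0.61 and 0.49. Both were higher in each exposed library, while Sox7 averaged 0.12 with PM2.5 and 0.73 in filtered air with overlap. The collagen chaperone Serpinh1 stood at 1.30, 2.08 and 2.28 against 1.43, 0.78 and 0.61, with overlap, and differed by 0.95 in the fit of genes with a mean of at least 1 (unadjusted p = 0.0218, limma adjusted p = 0.997). The mean over the 21 genes ran from 1.66 to 1.89 with PM2.5 and from 1.52 to 1.68 in filtered air.

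**Figure D3:**
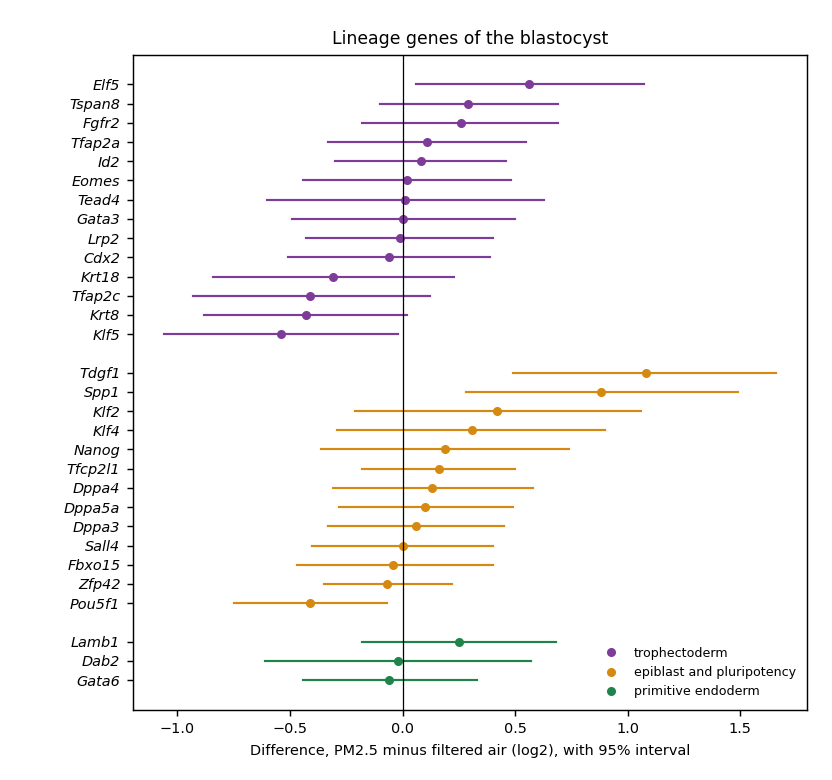
Difference between PM2.5 and filtered air (log2, horizontal axis) with its 95% interval for the 30 lineage genes that were tested, grouped as trophectoderm, epiblast and pluripotency, and primitive endoderm. The intervals of Elf5, Tdgf1 and Spp1 lie above 0 and those of Klf5 and Pou5f1 below 0, and none passed after adjustment over all 4834 genes.

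Of the genes of cavity formation, the one at an unadjusted p under 0.05 (3.95% over all genes tested) was the adhesion molecule E-cadherin. In the list of sodium pump subunits, aquaporins and junction proteins, 17 of 23 genes were tested, 13 higher and 4 lower, with a median of 0.12. It was 0.05 without PM2.5 replicate 1 and 0.06 without filtered-air replicate 3. The water channel Aqp3 stood at 5.89, 5.90 and 5.93 with PM2.5 and at 5.72, 5.44 and 5.81 in filtered air, and Epcam at 9.24, 9.15 and 9.17 against 8.88, 9.15 and 8.85. Each was higher in the exposed libraries by a narrow margin (for Epcam, less than the rounding), with differences of 0.25 (SE 0.15) and 0.23 (SE 0.13). The pump subunit Atp1b1 differed by 0.19 (SE 0.17), and the tight junction genes Cldn4 and Ocln by 0.12 and 0.22.

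Cdh1, which encodes E-cadherin (chromosome 8, 106603350 to 106670247), stood at 2.29, 6.03 and 1.40 with PM2.5 and at 5.93, 5.87 and 5.84 in filtered air. PM2.5 replicate 2 was level with the controls, and replicates 1 and 3 of PM2.5 were lower by more than 3 log2 units. The difference was -2.63 (SE 0.93, unadjusted p = 0.0191, limma adjusted p = 0.998), and without PM2.5 replicate 2 it was -4.03 with an adjusted p of 0.000692. Leaving out the exposed library level with the controls favours a smaller p, and Cdh1 did not pass with any other library left out. Its partners in the junction, the catenins Ctnnb1 and Ctnna1, differed by 0.07 and 0.13. A similar order of libraries was found for 2 genes outside the list, chosen after their values were seen: Lrp11, a receptor-related gene, stood at 0.44, 3.95 and 1.66 against 4.40, 4.16 and 4.49, and Wtap, a subunit of the RNA methylation complex, at 4.97, 6.75 and 5.05 against 6.64, 6.98 and 6.62.

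In the Hippo pathway, which sets trophectoderm apart from inner cell mass, 5 of 21 genes were tested, 2 higher and 3 lower, and none had a p under 0.05 (median -0.00). Tead4 differed by 0.01 (SE 0.27), Wwtr1 by -0.16 (SE 0.29), Mob1a by -0.00 (SE 0.18), Tead2 by -0.45 (SE 0.34) and the target Cyr61 by 0.19 (SE 0.34). The coactivator Yap1, below the floor, stood between 2.58 and 3.50 with overlapping groups.

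Genes of cholesterol synthesis mostly stood lower with PM2.5: 13 of 16 tested genes were lower and 3 higher, with a median of -0.26 against -0.01 over all genes. None passed the adjusted test, 4 had an unadjusted p under 0.05, all lower, and 5 were lower in every exposed library. Over all genes tested, 2.17% were lower at that p, 4.90% were lower in every exposed library and 2533 of 4834 had a lower mean. The mean over the 21 genes of the list was 3.91, 3.82 and 3.80 with PM2.5 and 4.29, 4.02 and 4.07 in filtered air, with no overlap and filtered-air replicate 1 the highest. Without that library the median was -0.17. The low direction of this list had been seen in these data before, so its count is not independent evidence of it.

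The 4 genes with the smallest p all encode enzymes of the steps after lanosterol. Cyp51, the lanosterol demethylase (chromosome 5, 4080674 to 4104697), stood at 4.71, 4.62 and 4.53 with PM2.5 and at 5.34, 5.09 and 5.01 in filtered air, a difference of -0.53 (SE 0.16, unadjusted p = 0.00909). Msmo1, the methylsterol oxidase (chromosome 8, 64718123 to 64733578), stood at 3.84, 3.90 and 3.65 against 4.20, 4.31 and 4.43, a difference of -0.52. All exposed libraries were below the controls for both.

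Nsdhl, the sterol dehydrogenase that acts with Msmo1 (chromosome X, 72918521 to 72958528), stood at 2.99, 3.01 and 2.73 with PM2.5 and at 3.54, 3.77 and 3.36 in filtered air, a difference of -0.65. Ebp, a sterol isomerase (chromosome X, 8185329 to 8193512), stood at 5.53, 5.26 and 5.53 against 5.92, 5.90 and 5.69, a difference of -0.40. Neither overlapped between groups, and the limma adjusted p was 0.998 for all 4 genes. Sqle, which makes the epoxide that is cyclized to lanosterol, was also lower in every exposed library, at 4.81, 5.01 and 5.02 against 5.52, 5.03 and 5.23. Mvd and Fdps, which act before squalene, differed by -0.58 and -0.36 with overlapping groups.

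Tested members that were not lower also included genes that act before squalene. Hmgcs1, which makes HMG-CoA, differed by 0.31 (SE 0.21) and the isomerase Idi1 by 0.20 (SE 0.46), each with overlapping groups. Insig1, the sterol-sensing protein that holds back the pathway's activator, stood at 5.76, 5.12 and 5.41 against 6.15, 5.94 and 5.66, a difference of -0.49 with overlap (unadjusted p = 0.0348). Srebf2, the activator itself, differed by -0.29 (SE 0.24), and in the list of sterol regulation, uptake and export 3 of 6 tested genes were higher and 3 lower (median -0.08).

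The 250 bases upstream of the RefSeq start of the 4 genes with the smallest p in the cholesterol list are shown, because genes of this pathway are known to carry CCAAT boxes, bound by the factor NF-Y, near their start. The sequences are from RefSeq on GRCm38.p6, the mm10 build, written 5′ to 3′ on the gene's strand, with CCAAT or its reverse complement ATTGG in capitals. Cyp51 lies on the minus strand (chr5:4104698-4104947), Nsdhl on the plus strand (chrX:72918271-72918520), and Msmo1 (chr8:64733579-64733828) and Ebp (chrX:8193513-8193762) on the minus strand.
Cyp51: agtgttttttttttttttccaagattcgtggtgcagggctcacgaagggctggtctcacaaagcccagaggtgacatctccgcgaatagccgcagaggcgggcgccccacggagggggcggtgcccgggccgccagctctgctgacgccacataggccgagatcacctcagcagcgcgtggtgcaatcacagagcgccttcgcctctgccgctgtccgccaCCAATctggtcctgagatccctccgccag
Nsdhl: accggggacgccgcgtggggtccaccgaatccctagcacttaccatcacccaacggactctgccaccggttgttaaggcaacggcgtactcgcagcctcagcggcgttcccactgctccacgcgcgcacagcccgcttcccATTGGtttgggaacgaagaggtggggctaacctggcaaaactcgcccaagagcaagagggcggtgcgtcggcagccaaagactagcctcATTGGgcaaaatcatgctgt
Msmo1: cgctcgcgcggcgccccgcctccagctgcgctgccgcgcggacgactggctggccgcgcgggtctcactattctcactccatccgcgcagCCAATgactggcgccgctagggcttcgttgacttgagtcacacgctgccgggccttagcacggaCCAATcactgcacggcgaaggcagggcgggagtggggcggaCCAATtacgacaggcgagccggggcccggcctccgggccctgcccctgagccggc
Ebp: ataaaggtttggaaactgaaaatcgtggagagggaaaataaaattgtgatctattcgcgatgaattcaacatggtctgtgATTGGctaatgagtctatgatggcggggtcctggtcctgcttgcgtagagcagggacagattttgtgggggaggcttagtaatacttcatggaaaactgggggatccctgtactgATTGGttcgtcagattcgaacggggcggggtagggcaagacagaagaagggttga
Counted back from the start, with -1 the base just before it, a box begins at -29 in Cyp51, at -109 and -20 in Nsdhl, at -160, -96 and -55 in Msmo1 and at -170 and -55 in Ebp. CCAAT on either strand was found in the same window of 15 of the 16 list genes that had a promoter in the table, 10 of 11 among those tested, and of 37.5% of all 27025 genes with a promoter. The motif TCACNCCAC, searched on both strands as the core of the sterol response element, was found in 1 list gene, Hmgcs1, and in 331 of the 27025 genes. These matches describe the letters of the window, and no binding was measured.

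The fatty acid genes with the smallest p belong to synthesis. Scd2, a stearoyl-CoA desaturase that makes monounsaturated fat (chromosome 19, 44293676 to 44306864), stood at 4.92, 4.79 and 4.77 with PM2.5 and at 5.67, 5.37 and 5.32 in filtered air, a difference of -0.63 (SE 0.16, unadjusted p = 0.00291, limma adjusted p = 0.998). Acly, which makes cytosolic acetyl-CoA from citrate, stood at 4.49, 4.73 and 4.70 against 5.10, 4.95 and 5.03, a difference of -0.39. Both were lower in every exposed library, and Scd1 differed by -0.34 (SE 0.16) with overlap. The oxidation genes Acadl, Acadm and Cpt1a differed by -0.06, 0.14 and 0.09, and over the 12 tested members of the list 6 were higher and 6 lower, with a median of -0.02.

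The oxidative stress response showed no shared direction. In the list of the NRF2 pathway, the main transcriptional answer to electrophiles, 11 of 22 genes were tested, 5 higher and 6 lower, with a median of -0.14 and none at a p under 0.05. The factor Nfe2l2 stood at 4.58, 4.59 and 4.37 with PM2.5 and at 3.79, 4.23 and 4.44 in filtered air (difference 0.36, SE 0.21), and its inhibitor Keap1 differed by 0.26 (SE 0.25). The inducible targets Nqo1 and Hmox1 were below the floor, at 0.68 to 0.97 against 0.35 to 1.23 and at 1.05 to 1.34 against 1.16 to 1.53.

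Among antioxidant enzymes 17 of 20 were tested, 6 higher and 11 lower, with a median of -0.05. Prdx6, a peroxiredoxin that also reduces lipid peroxides (chromosome 1, 161240112 to 161251210), stood at 4.64, 4.77 and 4.58 with PM2.5 and at 5.16, 5.08 and 4.92 in filtered air, a difference of -0.39 (SE 0.16, unadjusted p = 0.0325, limma adjusted p = 0.998). Gpx4, which guards membranes against lipid peroxidation, stood at 8.17 on average in the exposed libraries and catalase (Cat) at 4.09, and both were below every control, with differences of -0.23 (SE 0.13) and -0.26 (SE 0.17). The superoxide dismutases Sod1 and Sod2 differed by -0.13 (SE 0.13) and 0.00 (SE 0.14). Gpx1 stood at 8.55, 8.36 and 6.19 against 8.57, 8.34 and 8.23, so that PM2.5 replicate 3 alone was low.

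Of the aryl hydrocarbon receptor list, 3 of 11 genes were tested, and the defining targets were near or at 0. Of the tested genes 1 was higher and 2 were lower (median -0.36). Cyp1b1 was listed at 0 in all 6 libraries, Cyp1a1 at 0 in 5 and at 0.58 in filtered-air replicate 3, and the receptor gene Ahr stood at 0.08 to 0.12 with PM2.5 and at 0.00 to 0.90 in filtered air. Tiparp, another target, differed by 0.11 (SE 0.29), and the co-chaperone Ptges3 by -0.47. In metal handling 4 of 7 tested genes were higher and 3 lower (median 0.02). The metallothioneins Mt1 and Mt2, which bind zinc and cadmium, stood at 8.32 to 8.52 and 9.24 to 9.86 with PM2.5 and at 8.15 to 8.80 and 9.13 to 9.98 in filtered air, with differences of 0.02 (SE 0.18) and 0.04 (SE 0.23). The ferritin chains Fth1 and Ftl1 differed by -0.17 (SE 0.19) and -0.26 (SE 0.19).

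Markers of protein and DNA stress were likewise not past the test. In the unfolded protein and integrated stress response 17 of 33 genes were tested, 9 higher and 8 lower (median 0.03). Asns, an amino acid response target, stood at 3.69, 3.81 and 3.90 with PM2.5 and at 3.68, 3.30 and 2.45 in filtered air, a difference of 0.65 (SE 0.30) in which exposed and control replicate 1 were 0.01 apart. Atf4 differed by 0.31 (SE 0.27) and Ddit3 by 0.14 (SE 0.30). Of 13 tested heat shock chaperones 6 were higher and 7 lower (median -0.03), and Hspb1, a small chaperone, stood at 2.80 ± 0.53 against 3.58 ± 0.40 (SD, n = 3) with overlap.

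Of 11 tested p53 targets 4 were higher and 7 lower, with a median of -0.10. Mdm2, the ligase that degrades p53, stood at 3.85, 4.34 and 4.02 with PM2.5 and at 1.71, 2.78 and 4.20 in filtered air. Filtered-air replicate 3 was level with the exposed libraries, and the difference of 1.17 (SE 0.51, unadjusted p = 0.0462, limma adjusted p = 0.998) rested on the other controls. The cell cycle inhibitor Cdkn1a differed by -0.34 (SE 0.37), Bax by 0.11 (SE 0.21) and Ccng1 by -0.25 (SE 0.26). Of 10 tested apoptosis genes 3 were higher and 7 lower (median -0.13), with the largest difference -0.39 for Bad, and the caspase Casp6 differed by 0.06. Of 14 tested DNA repair genes 8 were higher and 6 lower (median 0.04), and the mismatch repair gene Msh6 stood at 5.55, 5.85 and 5.66 against 5.24, 5.46 and 5.27, a difference of 0.36 with no overlap.

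Transcripts of the mitochondrial genome differed more between libraries of 1 group than between the groups. All 15 tested genes of the mitochondrial genome overlapped between groups, 9 higher and 6 lower, with a median of 0.02. mt-Atp6 stood at 10.69, 12.97 and 12.91 with PM2.5 and at 10.46, 13.03 and 13.17 in filtered air, so that replicate 1 of each group was lower by over 2 log2 units while the group means differed by -0.03. mt-Co1 stood at 14.12, 14.64 and 14.35 against 13.95, 14.36 and 14.32. The predicted gene Gm28661 held the values of mt-Co2 to within 0.01 in each library, so reads of such copies cannot be kept apart.

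Nuclear-encoded genes of oxidative phosphorylation were even, 37 higher and 38 lower of 75 tested, with a median of -0.02. Of the 75, 2 had an unadjusted p under 0.05, where 3.95% of all genes tested did. Both belong to succinate dehydrogenase. Sdhd stood at 7.25, 7.04 and 7.48 with PM2.5 and at 7.03, 6.59 and 6.68 in filtered air. Sdhb stood at 6.63, 6.30 and 6.44 against 6.46, 5.65 and 5.78. Sdhd was higher in each exposed library by at least 0.01, Sdhb overlapped, and each differed by 0.49 (limma adjusted p = 0.998). The mitofusin Mfn1, which joins outer membranes, stood at 3.58, 3.48 and 3.26 against 4.43, 4.50 and 3.63, a difference of -0.75 (SE 0.26). In its list of autophagy and mitochondrial dynamics 5 of 20 were higher and 15 lower (median -0.07).

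Of 84 tested cytosolic ribosomal protein genes 21 were higher and 63 lower, with a median of -0.07. Of these, 1 had a p under 0.05, where 3.95% of all genes tested did. Rpl11, which also binds the p53 ligase when free, stood at 7.85, 7.69 and 7.85 with PM2.5 and at 8.51, 8.12 and 8.36 in filtered air, a difference of -0.53 (SE 0.14, limma adjusted p = 0.998) with no overlap. Without filtered-air replicate 1 the median of the list was 0.00, and that library had the highest share of ribosomal protein transcripts, 14.3% against 13.4% or less in each of the other 5. Ribosomal protein genes have many processed copies, so reads may be split among them. Of 68 mitochondrial ribosomal protein genes 26 were higher and 42 lower (median -0.02), with Mrps24 at 5.49 ± 0.04 against 5.91 ± 0.13 and Mrpl34 at 4.59 ± 0.19 against 5.07 ± 0.23 (SD, n = 3). Proteasome subunits were 14 higher and 19 lower of 33 (median -0.04), and Psmd4 differed by -0.40.

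In the replication and mitosis lists no gene had an unadjusted p under 0.05. Of 24 tested replication genes 10 were higher and 14 lower (median -0.05), and of 20 mitosis genes 15 were higher and 5 lower (median 0.06). The proliferation marker Mki67 stood at 4.08, 4.12 and 4.22 with PM2.5 and at 3.94, 4.05 and 3.77 in filtered air, higher in each exposed library by a margin that the test did not pass (difference 0.22, SE 0.18). Pcna differed by -0.23 (SE 0.15), Cdk1 by 0.25 (SE 0.21) and Top2a by 0.06 (SE 0.20). In glycolysis 7 of 16 were higher and 9 lower (median -0.03), with aldolase (Aldoa) at 6.17 ± 0.20 against 6.60 ± 0.22 (SD, n = 3, difference -0.43, no overlap) and Pgam1 on the other side (difference 0.26).

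Imprinted genes, which carry the parental marks kept through this stage, were mostly low, with 5 of 32 tested, 3 higher and 2 lower (median 0.02). The amino acid transporter Slc38a4, paternally expressed, stood at 4.79, 4.81 and 4.73 with PM2.5 and at 4.72, 3.94 and 4.24 in filtered air, a difference of 0.48 (SE 0.21, unadjusted p = 0.0494). Gnas stood at 4.05, 4.23 and 4.11 against 4.59, 4.39 and 4.42, a difference of -0.34. Each was separate between the groups, and Snrpn, Mcts2 and Mest overlapped. Of the DNA methylation genes 3 of 12 were tested and all 3 were lower, Dnmt3l by -0.40 (SE 0.26), Dnmt3b by -0.21 (SE 0.17) and Trim28 by -0.07 (SE 0.18). In the LIF and inflammation list 3 of 21 genes were tested, 1 higher and 2 lower (median -0.05), with Stat3 at 0.12 (SE 0.22) and the NF-kB subunit Rela at -0.13 (SE 0.19), and of 6 tested genes of implantation adhesion and growth factor receptors 3 were higher (median 0.11, and -0.02 without filtered-air replicate 3), where Plet1 differed by 0.38 (SE 0.19) and Lgals3 by 0.40 (SE 0.26).

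Of the other lists, 11 of 24 signal recognition particle and translocon genes and 9 of 23 Rab GTPases were higher, with medians of -0.02 and -0.05. Srp72 and Rab6a were the sole members of these lists with a p under 0.05, where 3.95% of all genes tested had one. Srp14, a partner of Srp72 in the particle, stood at 7.59, 7.51 and 5.30 with PM2.5 and at 7.70, 7.37 and 7.85 in filtered air, low in PM2.5 replicate 3 alone. Of the 29 lists with at least 5 tested genes, the median took the opposite sign under at least 1 alternative in 19 and did not in 10, among them cholesterol synthesis, epiblast and pluripotency, and apoptosis.

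**Figure D4:**
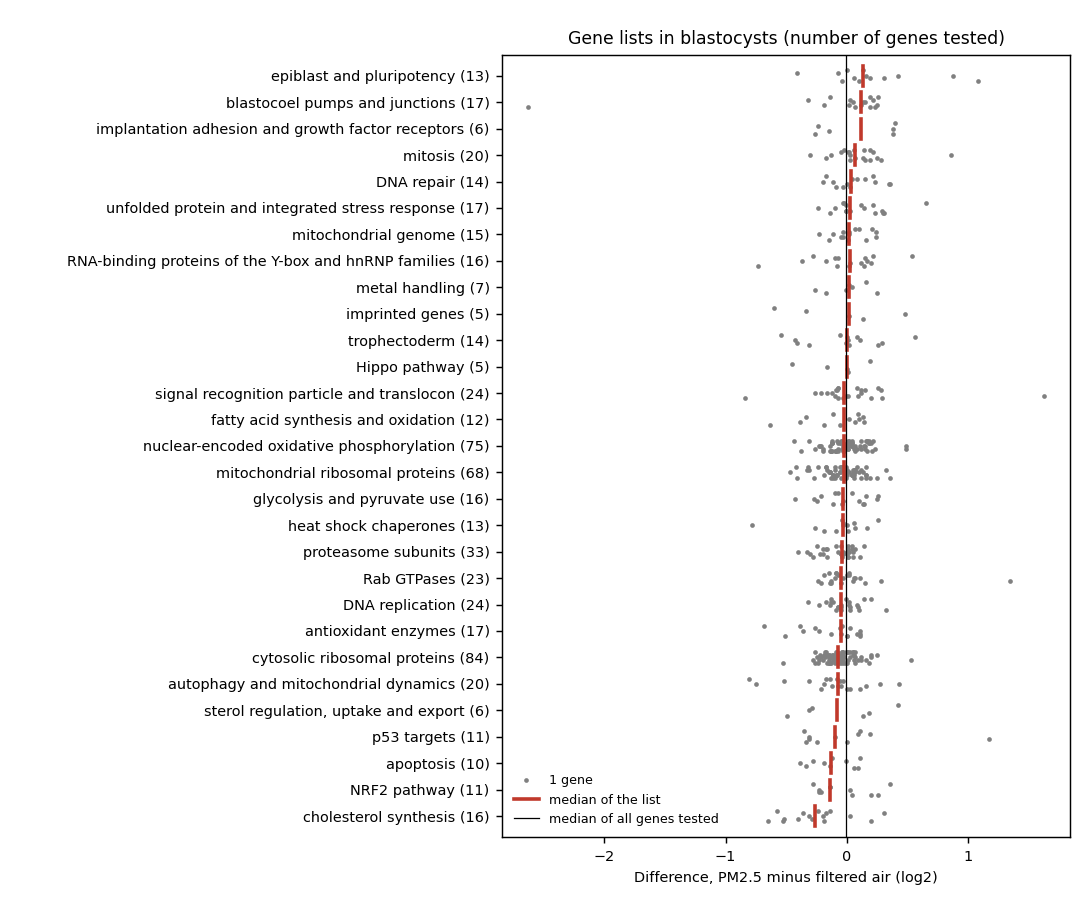
Difference between PM2.5 and filtered air (log2, horizontal axis) of each tested gene (grey points) in the lists with at least 5 tested genes, with the list's median (red bar) and the median of all 4834 genes (vertical line). Medians run from -0.26 for cholesterol synthesis to 0.13 for epiblast and pluripotency, and the points farthest out include Cdh1, Srp72, Rab6a, Mdm2 and Tdgf1.

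Transcripts of other cells were scarce. Of 14 cumulus and granulosa markers 9 were listed at exactly 0 in all 6 libraries, Inha, Fshr and Cyp19a1 among them, while Foxl2 rounded to 0.00 in each and none reached 1, with means over the list of 0.04 to 0.07 with PM2.5 and 0.03 to 0.05 in filtered air. Of 11 leukocyte markers 6 were at 0 throughout, including Ptprc and Lyz2, and Cd68 alone reached 1 (means 0.03 to 0.17 and 0.04 to 0.20), and 6 of 8 stromal markers were at 0. In the oviduct list Wfdc2 stood between 5.38 and 5.92 and differed by -0.11, while the defining Ovgp1 stayed at or below 0.50. The erythroid list had means of 0.00 to 0.02 with PM2.5 and 0.03 to 0.25 in filtered air, and 2 of its 5 genes were at 0 throughout. Of the 12 oocyte markers, Ooep stood at 4.61 to 4.82 and the zona and growth factor genes at or below 1.37, with list means of 0.56 to 0.73 and 0.45 to 0.73. The parts of these markers in the differences above were not tested beyond these levels.

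The sex of the embryos was not labelled. The Y-linked Eif2s3y stood at 3.67, 3.31 and 2.98 with PM2.5 and at 3.30, 2.79 and 4.35 in filtered air, so Y-linked RNA was detected in each library. The groups overlapped (difference -0.16, SE 0.37), and Xist, from the inactive X of female cells, stayed at or below 0.58. Transcripts of the 2-cell stage, which can reappear in a few embryonic cells, were below the floor. Zscan4c stood at 3.43, 1.72 and 0.00 with PM2.5 and at 0.00, 0.04 and 0.00 in filtered air, and Zscan4f at 2.80, 1.90 and 0.00 against 0 in all controls. Tcstv3 went the other way on average, at 2.80, 0.00 and 0.19 against 0.00, 0.04 and 4.15, and Tcstv1 stood at 1.78, 0.58 and 0.64 against 1.58, 0.76 and 0.91. The mean over the 12 genes ran from 0.20 to 1.18 with PM2.5 and from 0.11 to 0.50 in filtered air, with overlap. The Zscan4 members are near-identical, so their reads cannot be kept apart.

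Some genes were high in most libraries and close to 0 in 1 or 2, in either group. In 26 of the included genes (0.538%) 1 library lay at least 2 log2 units below all of the other 5, and in none did 1 library lie that far above, a pattern to which the floor on the mean contributes. Among 5212 genes with a mean from 1 to under 3 there were 21 of the first kind and 11 of the second. The low library was of the PM2.5 group in 13 of the 26 and of the filtered air group in 13. Trip13, a meiotic and spindle checkpoint ATPase, stood at 6.20 to 6.39 in 5 libraries and at 3.37 in filtered-air replicate 3. The Aurora kinase gene Aurka stood at 4.18 to 4.96 in 5 libraries and at 1.86 in filtered-air replicate 1.

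Such values set some of the largest differences between the groups. Chp1, a calcineurin-like regulator of sodium-proton exchange, stood at 5.43, 5.25 and 5.16 with PM2.5 and at 5.20, 0.75 and 0.26 in filtered air, a difference of 3.21 (SE 1.04). The predicted gene Gm26619 stood at 6.74, 7.48 and 8.31 against 5.24, 0.00 and 0.00, a difference of 5.77 (SE 1.18), the highest of all. Gm10260 stood at 8.75, 8.14 and 0.00 against 9.28, 9.13 and 9.16, a difference of -3.56 (SE 1.84), the lowest of all. The chromatin gene Cbx3 stood at 5.45, 5.20 and 0.94 against 5.34, 0.90 and 5.37, with a low library in each group and a difference of -0.01. In all, 12 genes were at 5 or more in 1 library and under 1 in another, 8 of them among the 4834. These genes were picked for their spread, so no test bears on them.

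**Figure D5:**
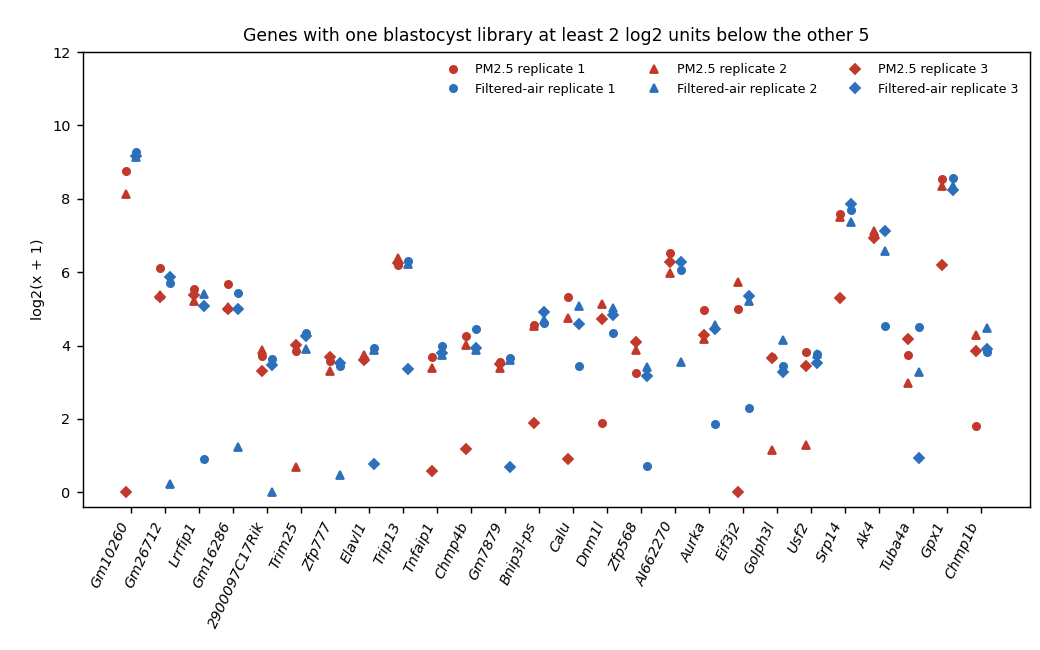
Values by library (log2(x + 1), vertical axis) of the 26 genes in which 1 blastocyst library lay at least 2 log2 units below the other 5. The low point is a PM2.5 library (red) for 13 genes and a filtered-air library (blue) for 13, and the other 5 libraries of a gene lie close together in most.

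Below the floor, 2 genes passed the threshold when genes down to a mean of 1 were included. Gm5148, annotated as protein coding on chromosome 3 from 37714190 to 37724360 and singled out after its values were seen, stood at 0.00, 0.05 and 0.04 with PM2.5 and at 4.92, 4.80 and 4.58 in filtered air. In the fit of 10046 genes with a mean of at least 1 the difference was -4.74 (SE 0.21, limma adjusted p = 6.45e-05). It was high in cumulus cells of both groups, with means of 4.45 and 4.23 in exposed and control libraries, and near 0 in oocytes of both, at 0.08 and 0.14. Gm2174, the other gene, was listed at 0 in all exposed libraries and stood at 4.23, 2.94 and 3.79 in filtered air (limma adjusted p = 0.0128). In cumulus cells Gm2174 varied within each group, from 0.00 to 3.53 with PM2.5 and from 0.00 to 3.08 in filtered air. In oocytes it averaged 0.31 with PM2.5 and 0.82 in filtered air. Whether reads of these predicted genes are shared with copies elsewhere was not tested.

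The exposure difference in blastocysts was set against that in oocytes over the 2054 genes with a mean of at least 3 in both. No gene passed in the test of the difference of differences (0%), and 134 (6.52%) had an unadjusted p under 0.05. Tdp2 was higher with PM2.5 in every blastocyst library and lower in every oocyte library, at 4.21 ± 0.04 against 4.78 ± 0.18 in oocytes (SD, n = 3), and the difference of differences was 1.42 (SE 0.25, limma adjusted p = 0.101). Timm10, a chaperone of mitochondrial import, differed by -0.02 in blastocysts and 1.67 in oocytes (difference of differences -1.69, SE 0.28, adjusted p = 0.101). With the replicate block its limma adjusted p was 0.0206, and with quantile normalization 0.0312. For Rab6a, Mrpl9, Dnaja1 and Gm15542 it was 1.64, -1.02, 1.10 and 0.97, each with an adjusted p of 0.177.

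Against cumulus cells, 3479 genes were tested, 4 passed (0.115%) and 604 (17.4%) had an unadjusted p under 0.05. In these 4 genes the blastocyst difference lay between -0.29 and 0.23 and the cumulus difference between -2.03 and 2.65. Plaa, a ubiquitin-binding cofactor, stood at 4.74, 5.79 and 5.45 in exposed and 4.76, 5.08 and 5.45 in control blastocysts, a difference of 0.23, where cumulus cells gave -2.03 (difference of differences 2.26, SE 0.35, limma adjusted p = 0.0184). This call was lost without blastocyst PM2.5 replicate 2 or 3 and without blastocyst filtered-air replicate 1 or 2. No cumulus library was left out in turn. Gcsh, of the glycine cleavage system, differed by -0.29 in blastocysts and 1.08 in cumulus cells (difference of differences -1.37, SE 0.17, adjusted p = 0.00237). Tpm3-rs7 and Gm7600 gave -2.44 and -1.21, with adjusted p of 7.60e-05 and 0.0148, and reads of such copies may be shared with their parent genes. Gm7600 lost its call under the replicate block and without blastocyst PM2.5 replicate 2 or 3.

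Srp72 and Rnf125 came next and did not pass in the main fit, but each passed in some alternatives. Srp72 passed with a pseudocount of 8, all 18 libraries and the replicate block. It also passed without blastocyst PM2.5 replicate 1 and without blastocyst filtered-air replicate 1 or 2. Rnf125 passed with quantile normalization, a pseudocount of 8, all 18 libraries and without blastocyst PM2.5 replicate 1. In cumulus cells Srp72 was lower in each exposed library, 5.26 ± 0.21 against 5.74 ± 0.12 (SD, n = 3), with a difference of differences of 2.10 (SE 0.39, limma adjusted p = 0.0598). Rnf125, a ubiquitin ligase, was higher in every exposed blastocyst library, at 4.69, 4.89 and 5.07 against 4.43, 4.48 and 4.47, and lower in every exposed cumulus library, with a difference of differences of 1.24 (SE 0.22, limma adjusted p = 0.0554). In oocytes Srp72 stood at 4.49 ± 0.25 and 4.53 ± 0.18, and the difference of differences against oocytes was 1.67 (SE 0.40, limma adjusted p = 0.268).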

How the data were processed

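RNA was measured by sequencing in 18 libraries, of which the 6 blastocyst libraries (3 PM2.5, 3 filtered air) carry the comparison. Per the labels' protocols, samples were lysed and reverse transcribed directly, cDNA was tailed by terminal transferase and amplified, and reads were paired. The authors deposited 1 table of log2 values, log2(x + 1) of what they call a normalized count. The submitters' processing notes name mm10 as the build and list DESeq 1.22.1, Cuffnorm and FastQC as tools, without a role or order. Which aligner and annotation they used is not given in the sources used here. Amplification from few cells can leave a transcript out of a library, and its part here was not tested.

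Genes with a mean of at least 3 over the 6 libraries were fitted with limma 3.58.1 in R 4.3.3 (lmFit, eBayes with trend), as a two-sided test with p-values adjusted by Benjamini-Hochberg (called under 0.05), without a replicate block. The difference of differences used the 12 libraries of both tissues. Read totals are unknown, so the number of libraries limits precision. The members, the 42 gene lists (1050 of 1053 names matched) and the tests were chosen with earlier results of these data known. Named genes are the 12 with the smallest p in each direction without predicted or clone symbols, the lineage members tested, up to 4 per other list by p and the 6 with the smallest p for each pair of tissues. Further members are given for their known role. Symbols were matched to RefSeq (GRCm38.p6) for 4590 of the 4834 genes, of which 4106 are protein coding. By the rule on symbols, 4930550L24Rik, Gm26619 and BC053393 were passed over.

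Alternatives were quantile normalization, pseudocounts of 0.1 and 8, other floors, no trend, library weights, a fit of all 18 libraries and a replicate block. Each blastocyst library was also left out in turn, but no oocyte or cumulus library was. Leaving out replicate 1 of both groups was added after seeing the data. Some list members are not reported here.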

Additional observations from a re-analysis of the deposited data

Results flagged for a closer look

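For 4 genes the exposure difference in blastocysts differed from that in cumulus cells by a test of the difference of differences. The value, on the log2 scale as blastocyst minus cumulus, was -2.44 for Tpm3-rs7, -1.37 for Gcsh, -1.21 for Gm7600 and 2.26 for Plaa. In blastocysts alone these genes differed by 0.21, -0.29, -0.05 and 0.23, and in cumulus cells by 2.65, 1.08, 1.16 and -2.03. With groups of 3, single libraries were not tested as outliers. Tpm3-rs7 and Gcsh passed with any 1 blastocyst library left out, whereas Plaa lost its call in 4 of these 6 fits and Gm7600 in 2. The cumulus libraries were not left out in turn, so these fits do not show how far a call rests on 1 of them.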

How the results depend on the processing

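No gene passed the threshold in blastocysts (0 of 4834, limma). The count was 2 with genes down to a mean of 1, 1 with no filter, 2 with the spread taken from all 18 libraries and 4 without replicate 1 of both groups, a setting chosen after seeing the data. Leaving out 1 library gave 0 to 4 genes: Cdh1, Lrp11, Crcp and Wtap without PM2.5 replicate 2, Wdr77 and Mat2a without PM2.5 replicate 3, Chp1 and Gm26619 without filtered-air replicate 1, and Cdipt without filtered-air replicate 2. It stayed at 0 under quantile normalization, both pseudocounts, a floor of 5, no trend, library weights and the replicate block. At an unadjusted p under 0.05 the 18 alternatives gave 68 to 854 genes. The lowest count came from 1771 genes tested with a floor of 5, and the highest from 22646 tested with no filter. These counts therefore cannot be compared directly with the 191 of the main fit. Library weights kept the 4834 genes and gave a count above both 191 and the 242 that chance alone gives. On the same genes, so did the fit of all 18 libraries and the replicate block. The fits without PM2.5 replicate 1 and without replicate 1 of both groups also exceeded 242. Counts below 242 came with quantile normalization, both pseudocounts, no trend and without PM2.5 replicate 2 or 3, among others. The cause of these rises, and of the shifts in the count past the threshold, was not tested.

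The 24 named genes kept their direction in all 417 values compared, and Srp72, Cdipt and Crcp passed in 1 alternative each. Against oocytes the count of 0 became 1 with quantile normalization, 3 with a floor of 1 and 1 (Timm10) with the replicate block. It was 0 to 3 with 1 blastocyst library left out. Against cumulus cells the count of 4 became 9 with all 18 libraries and 2 to 6 with 1 blastocyst library left out. It was 2 (Tpm3-rs7 and Gcsh) without blastocyst PM2.5 replicate 2 and without blastocyst PM2.5 replicate 3. Plaa also lost its call without blastocyst filtered-air replicate 1 or 2, and Gm7600 under the replicate block. Of 512 list medians compared 35 moved by more than the spread, and the cholesterol median stayed between -0.35 and -0.17.

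The replicate numbers were not taken to pair the libraries, since the labels tie no number to a batch or day. Deviations of same-numbered libraries correlated at 0.183, 0.0322 and -0.0254, and those of unlike-numbered libraries at -0.192 to 0.174. Replicate 1 of both groups did lie together on principal component 1. With the block the count in blastocysts was 0. Against cumulus cells it was 4, with Srp72 (limma adjusted p = 0.0394) in place of Gm7600.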
